A study of Homo sapiens with 18 samples.

Results

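Small Cajal body-specific RNAs (scaRNAs) were read from a small RNA-seq count table of HEK293T cells. They were taken as the rows whose name begins with SCARNA and whose window spans at most 500 nt, with rows of identical counts taken once. The rule found 33 rows and 30 distinct ones, of 175935 noncoding RNA features in the table. HEK293T is a human embryonic kidney line. The cells were transfected for 48 hours with a scramble siRNA (control) or with an siRNA against SSB (siSSB), the gene of the La protein, which binds the 3′ ends of new RNA polymerase III transcripts. RNA was then taken from whole cells (total), nuclei (nuc) or cytoplasm (cyto), with 3 biological replicates in each of the 6 groups, 18 libraries in all. All cells carried an siRNA, all came from 1 cell line, and all libraries were labelled as prepared with PNK. The labels do not tie a replicate number to a culture, so p-values measure only the spread between these libraries.

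scaRNAs guide the chemical modification of the spliceosomal small nuclear RNAs (snRNAs). Those with a C/D box direct ribose methylation, those with an H/ACA box direct pseudouridylation, and some carry both. They gather in Cajal bodies, nuclear bodies where snRNAs mature, whereas their snoRNA relatives (SNORA for H/ACA, SNORD for C/D) act on ribosomal RNA in the nucleolus. Most are cut out of introns of RNA polymerase II transcripts, so they are not among the RNAs whose 3′ ends La is best known to bind.

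The libraries held between 2317 and 6879 scaRNA counts each, in columns that summed to 21565995 to 158244813 counts. Overlapping features are counted several times in those sums, and the rows of at most 500 nt, with identical rows taken once, held 2471886 to 7971280 counts. The fractions were recognisable: Y RNAs and vault RNA VTRNA1-1, which are cytoplasmic, had 816 to 1380 CPM of the short rows (counts scaled to a common total of those rows) in control nuc and 57658 to 67156 in control cyto, summed over all 5 listed. The nuclear markers MALAT1, NEAT1 and SNORD3A did not separate the fractions on this scale, at 370 to 603 CPM in control nuc and 470 to 634 in control cyto. microRNAs of other cell types (10 of 12 listed rows found, 5 to 9 of them at 0 in a group) summed to 0 to 156 counts per library. SSB has no row of its own in this noncoding table, so the knockdown could not be checked on its target. Control total replicate 1 stood apart, with 45880 SNORA counts against 19917 and 18221 in the other two, and the main results in total RNA are given with and without it. Fewer cells of a kind and less RNA per cell cannot be told apart in such bulk samples.

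The H/ACA scaRNAs at both ends of the order from nuclear to cytoplasmic RNA are shown first, since the results turn on them. The sequences are those of the RefSeq genes (RefSeq annotation, GRCh38.p14) read from hg38, written 5′ to 3′ on the strand of the RNA as DNA letters. In the H/ACA members the capitals mark ACA within the last 10 bases, the motif that gives the class its name, and TGAG, the letters of the Cajal body box.

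SCARNA20 (chr17:60231516-60231645, minus strand, in an intron of USP32): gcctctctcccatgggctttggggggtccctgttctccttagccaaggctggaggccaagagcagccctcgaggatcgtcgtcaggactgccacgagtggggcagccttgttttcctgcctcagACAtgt
SCARNA22 (chr4:1974636-1974760, plus strand, in an exon of an NSD2 transcript): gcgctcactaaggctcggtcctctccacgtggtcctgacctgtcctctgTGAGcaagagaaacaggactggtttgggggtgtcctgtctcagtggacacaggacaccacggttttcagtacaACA
SCARNA8 (chr9:19063656-19063786, minus strand, in an intron of HAUS6): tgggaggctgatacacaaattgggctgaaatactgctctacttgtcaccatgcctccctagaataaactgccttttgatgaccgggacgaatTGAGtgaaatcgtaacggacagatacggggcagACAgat
SCARNA14 (chr15:66347206-66347342, minus strand, in an intron of TIPIN): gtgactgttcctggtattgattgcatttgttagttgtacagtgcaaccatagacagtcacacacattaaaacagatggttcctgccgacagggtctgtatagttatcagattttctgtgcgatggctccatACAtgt
SCARNA16 (chr17:77089307-77089493, plus strand, in an exon of SNHG20): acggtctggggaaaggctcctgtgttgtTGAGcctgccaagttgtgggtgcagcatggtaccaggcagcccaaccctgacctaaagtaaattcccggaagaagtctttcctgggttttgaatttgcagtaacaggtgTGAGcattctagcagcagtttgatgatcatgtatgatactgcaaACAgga

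The first 3 of these were among the 4 scaRNAs most on the nuclear side and the last 2 were on the cytoplasmic side. ACA stood within the last 10 bases of all 13 members listed as H/ACA, against 88.8% of 152 SNORA genes and 5.42% of 295 SNORD genes of GENCODE. TGAG was present in 7 of the 13, against 44.1% of the SNORA genes and 86.1% of the SNORD genes. They did not separate the ends of the order: SCARNA20 and SCARNA14 both lacked TGAG. Only the strand of the RNA was searched, and no ACA shown in capitals overlaps a TGAG in these 5 sequences.

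SCARNA28, a C/D scaRNA and the member lowest in nuclear against cytoplasmic RNA in control cells, is shown with TGATGA and CTGA in capitals, letters of the C and D boxes. SCARNA9 is a tandem C/D scaRNA, and the rows RF00494 and RF00493 of the table cover its 5′ and 3′ units. Both units are shown because almost all SCARNA9 counts lay in them.

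SCARNA28 (chr7:98881697-98881890, plus strand, in an intron of TRRAP): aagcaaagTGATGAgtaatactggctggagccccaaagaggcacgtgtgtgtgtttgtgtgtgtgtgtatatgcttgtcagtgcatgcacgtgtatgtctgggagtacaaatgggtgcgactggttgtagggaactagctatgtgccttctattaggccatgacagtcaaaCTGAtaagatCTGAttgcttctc
SCARNA9, 5′ unit (chr11:93721542-93721621, plus strand, in an intron of CEP295): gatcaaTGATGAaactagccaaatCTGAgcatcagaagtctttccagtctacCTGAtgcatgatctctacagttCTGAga
SCARNA9, 3′ unit (chr11:93721797-93721866, plus strand): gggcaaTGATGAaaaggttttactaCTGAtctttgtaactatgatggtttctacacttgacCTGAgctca

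TGATGA was found in all 5 C/D members with a RefSeq gene of their own and in all 4 mixed ones, against 75.3% of the SNORD and 3.29% of the SNORA genes. CTGA was found in all of these members too, against 96.9% of SNORD and 49.3% of SNORA genes. TGATGA also stood in 3 of the 13 H/ACA members and CTGA in 9. The C/D members had a median length of 353 nt against 82 nt for the SNORD genes, which gives short motifs more places to occur. Of the 28 members with a RefSeq gene, 20 lay in introns only and 8 overlapped an exon of their host transcript. The table adds flanks of about 25 nt to each gene, and 26 of the 28 windows had 24 to 26 nt on both sides.

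Which scaRNAs the libraries held was uneven. SCARNA2, which guides methylation of U2 snRNA, had 11971 counts over the 18 libraries and SCARNA20 had 11725. SCARNA9, another U2 guide, had 7058, SCARNA14 4721, SCARNA22 4485 and SCARNA16 4264. Per length the order changed: SCARNA20 had 6478 counts per 100 nt of its window, and the next, SCARNA22, SCARNA2 and SCARNA14, had 2563, 2542 and 2538. Members with 3440 down to 227 counts were, in order, SCARNA28, SCARNA4, SCARNA11, SCARNA12, SCARNA15, SCARNA6, SCARNA8, SCARNA7, SCARNA27, SCARNA23, SCARNA1, SCARNA13, SCARNA10, SCARNA18, SCARNA5, SCARNA3 and SCARNA17.

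The remaining 7 rows had few counts. SCARNA26A had 67 counts in all, SCARNA21 had 53, SCARNA26B 35, SCARNA18B 33 and SCARNA21B 15. A shorter row inside SCARNA17 had 43, which are also part of the SCARNA17 row. A set of 3 identical rows named for SCARNA18 on chromosome 22 was at 0 in all libraries. With the filter on low counts, none of these 7 entered a comparison of 2 groups, apart from SCARNA26A in the test of the difference between fractions, and at this depth no change in them was detectable.

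Several rows may not measure only the scaRNA they are named for. Overlapping features share reads and the strand of a read was not used: in all 1085 pairs of a short row of at least 100 counts and a longer row around it on the opposite strand, the longer row had at least as many counts in each of the 18 libraries. The SCARNA14 row, with 4721 counts, lay inside a longer row on the opposite strand that is named for a signal recognition particle (SRP) RNA. That longer row had 752876 counts. Reads of that RNA and of the scaRNA cannot be told apart in SCARNA14 values. The window of MIR1843, a microRNA hairpin that overlaps SCARNA3 on the same strand, held 236 of the 247 counts of the SCARNA3 row. That window, from 175968344 to 175968504, covers most of the SCARNA3 row, from 175968372 to 175968565. Reads of the hairpin and of the scaRNA therefore cannot be told apart in SCARNA3 values. The mature microRNA of MIR1843 in RefSeq, with bases 2 to 8 (the seed) in capitals, lies inside SCARNA3.
hsa-miR-1843 (chr1:175968440-175968459, minus strand): uAUGGAGGucucugucuggc

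The 5′ and 3′ units of SCARNA9 held 2057 and 4988 of its 7058 counts. In control cyto the 3′ unit had 81.6%, 80.3% and 86.6% of the SCARNA9 counts of a library, and in control nuc 64.8%, 60.1% and 51.9%. The 3′ unit was thus above the 5′ unit in every fraction library, and its share in cyto did not overlap its share in nuc in control cells. After SSB knockdown it had 79.3%, 84.9% and 81.5% in cyto and 71.4%, 67.1% and 78.4% in nuc, again without overlap. In siSSB nuc all 3 shares lay above those of control nuc. In SCARNA28 a window named for MIR3609, which covers the 5′ end, held 3.02% ± 1.6 (SD, n = 3) of the counts in control cyto and 44.05% ± 26.8 in control nuc. Outside this window SCARNA28 had 1365 counts over the 3 control cyto libraries and 49 over the 3 control nuc libraries.

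To see which scaRNAs made up each RNA fraction, the count of each was taken as a percent of all scaRNA counts of its library, a ratio that no scaling between libraries can change. Nuclear scaRNA counts were led by SCARNA20, an H/ACA member, followed by the C/D member SCARNA2 and SCARNA22 (H/ACA) in control cells and by SCARNA22 in siSSB cells. By control means, cytoplasmic counts were led by SCARNA14, SCARNA2, SCARNA9, SCARNA28 and SCARNA16. By siSSB means the cytoplasmic order was SCARNA2, SCARNA14, SCARNA9, SCARNA16 and SCARNA28. SCARNA20 had 26.1%, 43.1% and 49.7% in control nuc and 41.9%, 45.6% and 40.5% in siSSB nuc. In cyto it had 1.20%, 1.04% and 1.34% in control and 1.32%, 1.65% and 0.646% in siSSB cells. In total RNA it had 9.89%, 2.49% and 1.51% in control and 2.18%, 0.606% and 3.03% in siSSB cells. Every nuclear library was above every other library, and the highest total library was control replicate 1.

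SCARNA22 followed the same pattern at a lower level. Its share was 8.34%, 12.4% and 12.1% in control nuc and 17.4%, 17.4% and 14.0% in siSSB nuc, so the knockdown libraries lay above the controls. In cyto its share was 1.52%, 2.20% and 1.85% in control and 1.89%, 2.40% and 2.18% in siSSB cells. In total RNA it lay between 1.31% and 2.70% in all 6 libraries, below every nuclear one.

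SCARNA14 and SCARNA16, 2 other H/ACA members, were distributed the opposite way, although the SCARNA14 row may hold reads of the SRP RNA named above. SCARNA14 had 17.8%, 15.1% and 19.5% in control cyto and 17.1%, 11.8% and 17.6% in siSSB cyto. In nuc it had 2.56%, 1.70% and 0.516% in control and 1.29%, 0.611% and 1.13% in siSSB cells. Its total libraries lay between the fractions, at 7.09%, 6.85% and 7.07% in control and 4.05%, 3.58% and 5.98% in siSSB cells, the controls all above the knockdown. SCARNA16 had 9.21%, 7.77% and 10.6% in control cyto 11.04%, 13.8% and 10.5% in siSSB cyto. In nuc it had 1.72%, 0.865% and 1.01% in control and 1.08%, 1.06% and 1.40% in siSSB cells. In total RNA it had 9.40%, 8.27% and 9.91% in control and 9.46%, 11.3% and 8.84% in siSSB cells, close to its cytoplasmic level.

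The C/D members SCARNA2 and SCARNA9 were spread more evenly between nuc and cyto than these. SCARNA2 had 22.7%, 31.6% and 34.7% in control total and 39.5%, 29.0% and 30.2% in siSSB total. In nuc it had 16.0%, 10.9% and 12.3% in control and 6.90%, 7.75% and 10.9% in siSSB cells, the knockdown libraries all below the controls, with the closest pair equal to 3 digits. In cyto it had 12.2%, 12.9% and 19.6% in control and 15.8%, 20.7% and 15.0% in siSSB cells. The lowest SCARNA2 share in total RNA exceeded the highest in either fraction. SCARNA6, a mixed C/D and H/ACA member, did so as well, with 2.86% to 4.52% in total RNA and 0.438% to 2.76% in the fractions. The other 27 members overlapped. The total shares of SCARNA2 and SCARNA6 thus cannot be read as a mix of their fraction shares.

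SCARNA9 had 11.5%, 16.4% and 14.9% in control total and 12.7%, 20.5% and 16.0% in siSSB total. Its cytoplasmic shares were 14.2%, 17.4% and 12.3% in control and 12.4%, 11.1% and 13.8% in siSSB cells. The nuclear ones were lower, at 11.6%, 5.42% and 4.18% in control and 5.88%, 3.18% and 5.96% in siSSB cells, although control nuc replicate 1 lay above the lowest siSSB cyto library. SCARNA28 had 14.0% ± 3.64 (SD, n = 3) in control cyto, 10.1% ± 1.76 in siSSB cyto and under 1.17% in each nuclear library. By box, the 13 H/ACA members held 70.9% ± 9.18 of scaRNA counts in control nuc, 47.5% ± 3.07 in control cyto and 39.6% ± 9.64 in control total. The C/D members held 22.0% ± 6.76, 45.9% ± 1.89 and 50.6% ± 8.93. Most of the nuclear H/ACA share came from SCARNA20, with a control mean of 39.7%, and SCARNA22, with 10.9%. Their cytoplasmic control means were only 1.19% and 1.86%. SCARNA14 and SCARNA16, also H/ACA, went the other way. SCARNA14 averaged 1.59% of nuclear and 17.5% of cytoplasmic control counts, and SCARNA16 1.20% and 9.19%. The box shares therefore do not describe each H/ACA member.

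**Figure D1:**
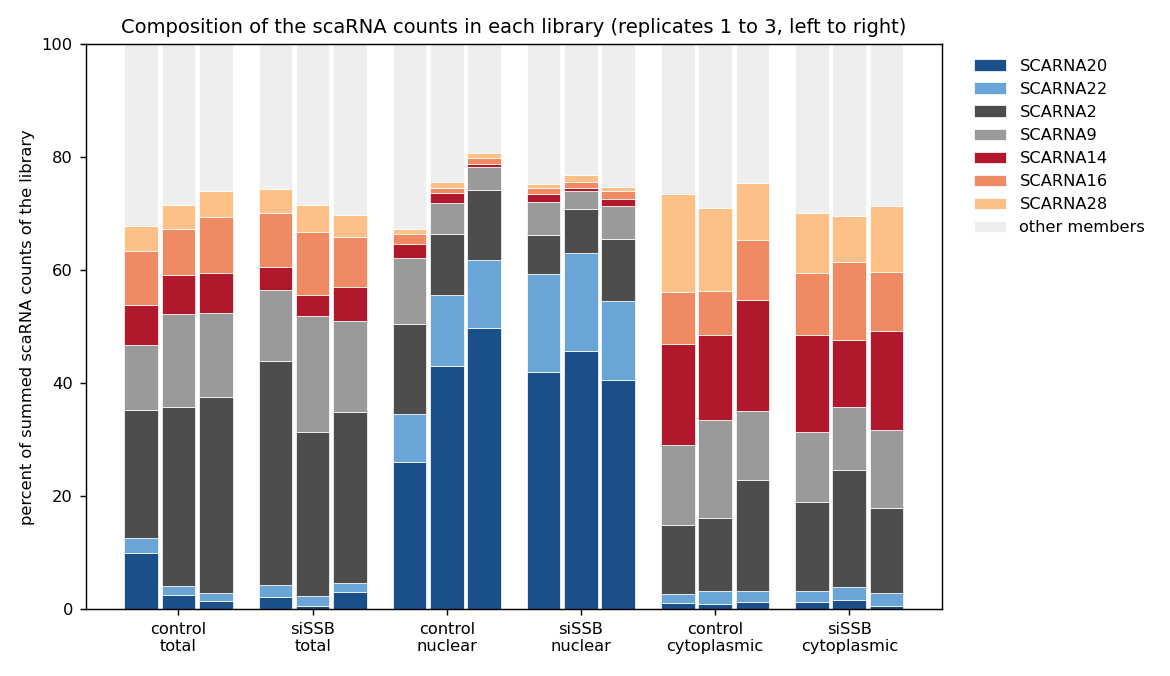
Percent of the summed scaRNA counts of each library (vertical axis) held by 7 members and by the others, for 18 libraries in 6 groups of 3 replicates. SCARNA20 and SCARNA22 are wider in each nuclear bar than in any other, and SCARNA14, SCARNA16 and SCARNA28 are wide in the cytoplasmic bars and thin in the nuclear ones.

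The nucleus was then compared with the cytoplasm in the control cells, by edgeR's quasi-likelihood F-test over all features with TMM scaling (levels in CPM, counts scaled to a common library size). SCARNA20, SCARNA22, SCARNA8 (a U2 pseudouridylation guide) and the mixed SCARNA12 led the nuclear side, and SCARNA28, SCARNA14 and SCARNA16 lay on the cytoplasmic side. Of 23 members tested, 14 were called higher in nuc and 3 lower at an adjusted p under 0.05. Over all 26774 features tested 23.3% were called, with 9.21% higher and 14.1% lower in nuc. The median log2 fold change of the members was 1.22, against 5.46 over 119 SNORA rows, 5.40 over 173 SNORD rows and -0.27 over all features. Of the snoRNAs 116 SNORA and 167 SNORD rows were called higher.

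SCARNA20 had 18.8, 41.6 and 68.7 CPM in control nuc and 0.373, 0.231 and 0.388 CPM in control cyto. This is a log2 fold change of 7.01 ± 0.46 (SE, edgeR QL with Benjamini-Hochberg adjustment, adjusted p = 6.0e-14). SCARNA22 had 6.02, 11.97 and 16.7 CPM in nuc and 0.473, 0.491 and 0.536 CPM in cyto, a log2 fold change of 4.52 ± 0.38 (edgeR adjusted p = 2.4e-11). The groups do not overlap for either, and the nuclear libraries vary among themselves more than the cytoplasmic ones do. SCARNA8 had 3.04, 3.40 and 4.06 CPM in nuc and 0.373, 0.337 and 0.326 in cyto, and its log2 fold change was 3.33 ± 0.34. SCARNA12 was close to it, with 3.06, 2.73 and 3.49 CPM in nuc, 0.418, 0.328 and 0.265 in cyto and a log2 fold change of 3.20 ± 0.35.

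On the other side, SCARNA28 had 0.579, 1.12 and 1.28 CPM in control nuc and 5.37, 3.29 and 2.92 CPM in control cyto, a log2 fold change of -1.97 ± 0.36 (edgeR adjusted p = 5.7e-05). SCARNA14 had 1.85, 1.64 and 0.712 CPM in nuc and 5.54, 3.37 and 5.66 CPM in cyto, a log2 fold change of -1.79 ± 0.35 (edgeR adjusted p = 0.00017). SCARNA16 had 1.24, 0.834 and 1.39 CPM in nuc and 2.86, 1.73 and 3.07 CPM in cyto, a log2 fold change of -1.15 ± 0.34 (edgeR adjusted p = 0.012). All 3 had every nuclear library below every cytoplasmic one. The call of SCARNA16 was lost without control nuc replicate 1, or replicate 2. Between these ends lay SCARNA27, SCARNA11, SCARNA1, SCARNA15, SCARNA2, SCARNA17, SCARNA5, SCARNA23, SCARNA10 and SCARNA4, called higher with log2 fold changes of 2.38 down to 1.18. Among these, SCARNA17 and SCARNA5 rested on few counts. SCARNA17 had 10, 6 and 4 counts in control nuc and 6, 4 and 15 in control cyto, and SCARNA5 had 7, 8 and 15 and 14, 14 and 18. SCARNA9, SCARNA13, SCARNA6, SCARNA18, SCARNA7 and SCARNA3 were not called, with log2 fold changes between 0.71 and -0.12. Of the 22 steps between neighbours in this order, 6 were larger than their standard error, and 5 were in siSSB cells. The steps from SCARNA20 to SCARNA22, from SCARNA22 to SCARNA8 and from SCARNA12 to SCARNA27 were so in both.

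**Figure D2:**
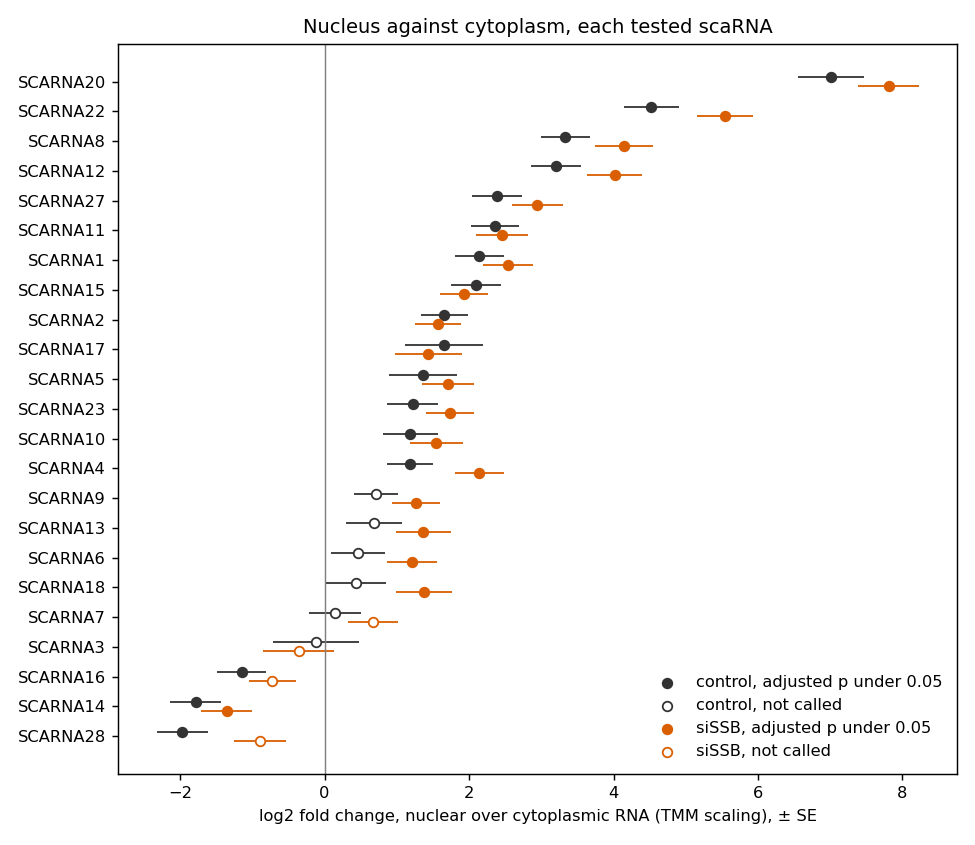
Log2 fold change of nuclear over cytoplasmic RNA (horizontal axis, TMM scaling, bars ± SE, 3 against 3 libraries) for 23 scaRNAs in control and siSSB cells. Filled points were called at an adjusted p under 0.05, and the order runs from SCARNA20, at 7.01 and 7.81, to SCARNA28, at -1.97 and -0.90.

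In siSSB cells, whose libraries are separate from those of the control cells, the order was nearly the same. Of 23 members tested, 18 were called higher in nuc and 1, SCARNA14, lower, where 25.3% of 26274 features were called, with 10.8% higher and 14.5% lower. The 4 members most on the nuclear side were the same 4 and the 3 most on the cytoplasmic side the same 3. Across the 23 members the log2 fold changes of both conditions had a Spearman rho of 0.96, as a description only, since each set of values shares its libraries. SCARNA20 had 79.5, 90.8 and 59.8 CPM in siSSB nuc and 0.317, 0.487 and 0.219 in siSSB cyto, a log2 fold change of 7.81 ± 0.43 (edgeR adjusted p = 1.1e-13). SCARNA22 had 33.1, 34.7 and 20.7 CPM in nuc and 0.454, 0.709 and 0.742 in cyto, a log2 fold change of 5.54 ± 0.39. SCARNA8 stood at 4.15 ± 0.40 and SCARNA12 at 4.01 ± 0.39 on the same scale. SCARNA14 stood at -1.35 ± 0.36 (edgeR adjusted p = 0.0051), and SCARNA28 at -0.90 ± 0.36 and SCARNA16 at -0.72 ± 0.33 were not called. The call of SCARNA14 was lost without siSSB nuc replicate 2.

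The direction between fractions changed with the scaling for most members. The median of all features moved from -0.27 with TMM to -6.12 when libraries were scaled to their summed snoRNA counts, and from -0.19 to -6.00 in siSSB cells. Under 6 scalings (TMM, RLE, library size alone, all short rows, summed microRNAs and summed snoRNAs), SCARNA20 was called higher in nuc in all 6, in control cells with log2 fold changes of 1.11 to 7.02 and in siSSB cells of 2.02 to 8.02. SCARNA14, SCARNA16 and SCARNA28 were called lower in all 6 in control cells and had a negative sign in all 6 in siSSB cells, with 5, 3 and 3 calls. By library size alone, short rows and snoRNAs, most features were called lower: 25770, 25261 and 26109 of 26774 in control cells. In siSSB cells these were 25211, 24651 and 25649 of 26274. A lower call under those scalings is therefore not particular to these members. SCARNA22 was positive in 5 of 6 in both conditions and negative, at -1.43 and -0.28, with the snoRNA scaling. In control cells 18 of 23 members changed sign with the scaling, and in siSSB cells 19. With the snoRNA scaling SCARNA20 was thus the only one of the 23 with a positive value.

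**Figure D3:**
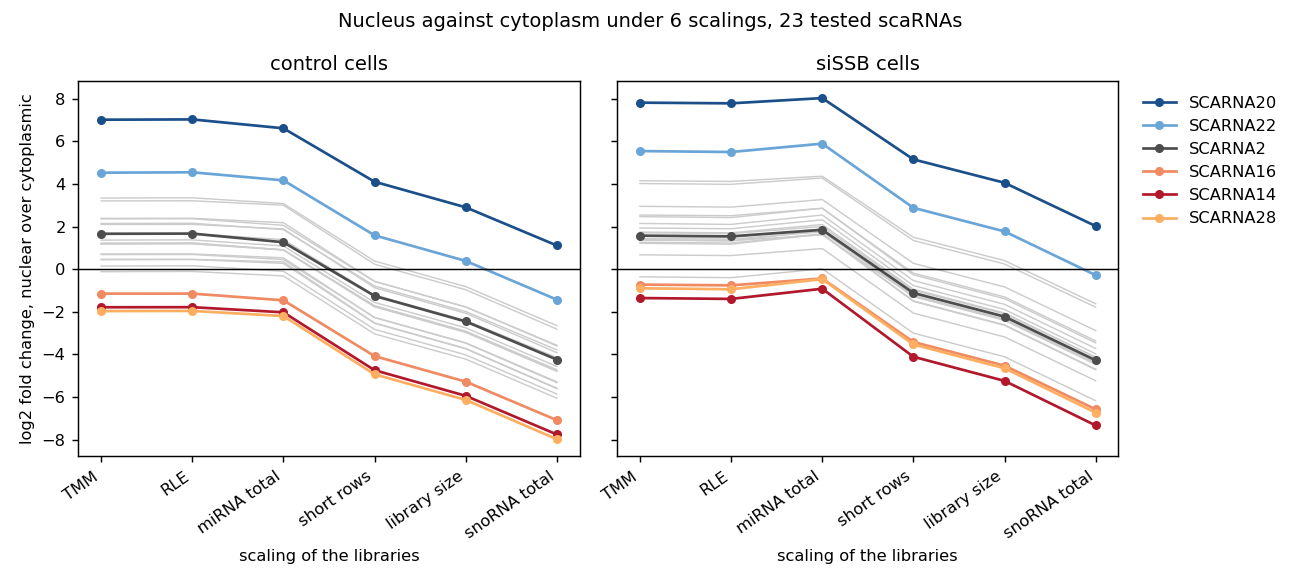
Log2 fold change of nuclear over cytoplasmic RNA (vertical axis) of 23 scaRNAs under 6 scalings of the libraries (horizontal axis), in control and siSSB cells, with 6 members in colour and the others in grey. SCARNA20 stays above 0 throughout, and SCARNA14, SCARNA16 and SCARNA28 stay below. The order of the lines is nearly the same under each, because a scaling of whole libraries shifts all members nearly alike.

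The position of a member in this order was set beside features that did not choose it. Over the 23 members, the log2 fold change in control cells had a Spearman rho of 0.41 with GC content and -0.33 with gene length, and in siSSB cells of 0.29 and -0.48. With mean count it was 0.11 and 0.09. These are weak relations over points that share libraries. Members with TGAG had a median log2 fold change of 1.19 in control cells (17 members) and those without it 1.66 (6 members), and both sets reached from below 0 to above 4. All 5 C/D and all 4 mixed members had TGAG, and the 6 without it were H/ACA members. This split therefore also follows the box and does not single out a Cajal body box.

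Beside the scaRNAs, the spliceosomal snRNAs were read from the same fits, U6 and U6atac among them, which RNA polymerase III transcribes. So were the U7 snRNA (RNU7-1) of histone mRNA processing and the telomerase RNA TERC (an H/ACA RNA with a Cajal body box). The 35 rows of all these RNAs stand for 16 named genes, with 12 rows of RNU2-1, 6 of RNU1-1 and 4 of RNU6-1 that are near-identical copies. In control cells 33 of 35 such rows were called higher in nuc and 1 lower, with a median log2 fold change of 3.13. In siSSB cells the counts were 33 and 1 of 34, with a median of 2.61. Taken once per named gene, 14 of 16 were called higher in control cells and 14 of 15 in siSSB cells, with medians of 2.47 and 1.97, against 1.22 and 1.57 over the scaRNAs. The row called lower, named after its values were seen, was RNU7-1, at -2.28 ± 0.33 in control and -1.45 ± 0.34 in siSSB cells. TERC was higher in nuc by 2.01 ± 0.38 on the log2 scale in control and 1.74 ± 0.36 in siSSB cells.

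To ask whether La depletion changed scaRNAs, siSSB was compared with control in each kind of RNA, on the same libraries that served the comparisons of the fractions. No scaRNA was called in any of the 3. In nuclear RNA all 21 tested members had a positive log2 fold change, with a median of 0.57, and none was called, where 0.378% of 6873 features were. All features had a median of 0.08, the 125 SNORA rows -0.04 with 57 positive, the 175 SNORD rows -0.12, and the 34 rows of snRNAs and TERC -0.33 with 2 positive (-0.34 taken per gene). At an unadjusted p under 0.05 edgeR gave 6 of the 21 members and DESeq2 gave 3, with 20 of 21 positive by DESeq2. Over all 6873 features edgeR gave 959 and DESeq2 gave 714 at that level. The members share their 6 libraries, so a common sign over them is 1 observation and not 21.

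SCARNA22 had 1.55, 3.24 and 4.51 CPM in control nuc and 7.38, 8.68 and 4.77 in siSSB nuc, a log2 fold change of 1.16 ± 0.37 (edgeR adjusted p = 0.22). SCARNA12 had 0.791, 0.738 and 0.942 CPM in control nuc and 1.57, 2.03 and 1.64 in siSSB nuc, a log2 fold change of 1.09 ± 0.27 (edgeR adjusted p = 0.12). For both, every knockdown library lay above every control library, and SCARNA12 had the tighter groups. SCARNA4, SCARNA16, SCARNA27, SCARNA1 and SCARNA8 were likewise apart, with log2 fold changes of 0.83, 0.67, 0.73, 0.61 and 0.57. These 7 of 21 compare with 13.2% of all features tested that lay higher in each siSSB nuc library, and 9.06% that lay lower, where no member did. SCARNA20 had 4.86, 11.3 and 18.5 CPM in control nuc and 17.7, 22.7 and 13.8 in siSSB nuc, so its groups overlapped (log2 fold change 0.65 ± 0.39). SCARNA2 had a log2 fold change of 0.01 ± 0.29, at 2.98, 2.85 and 4.6 CPM in control and 2.92, 3.86 and 3.70 in siSSB nuc. With a library left out 18 to 20 of the 21 were positive, and 20 were positive under all 6 scalings, of which 4 put the median of all features at 0.37 to 0.43. The 5 cytoplasmic marker RNAs were lower in siSSB nuc, at 548 to 805 CPM of the short rows against 816 to 1380 in control nuc without overlap. These 5 are themselves RNA polymerase III transcripts, the class that La binds. The 22 mitochondrial tRNAs, another cytoplasmic set, were not lower and overlapped, at 2554 to 3072 in siSSB nuc and 2099 to 2819 in control nuc. The part of either set in the result was not tested.

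**Figure D4:**
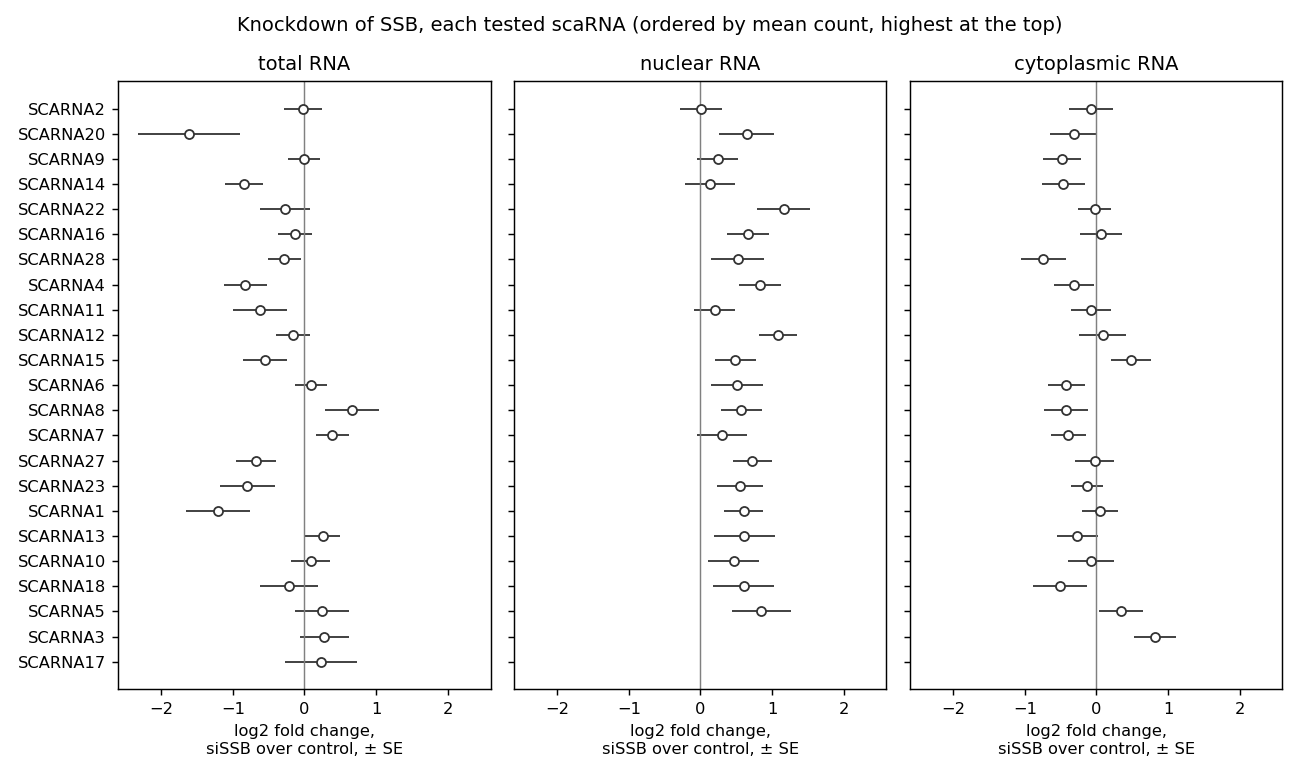
Log2 fold change of siSSB over control (horizontal axis, TMM scaling, bars ± SE, 3 against 3 libraries) for each tested scaRNA in total, nuclear and cytoplasmic RNA. All 21 nuclear values lie above 0, and no value in any panel was called at an adjusted p under 0.05.

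In total RNA no member of 23 was called, where 1.34% of 13883 features were. By edgeR 5 members had an unadjusted p under 0.05 and by DESeq2 3 had, where 2301 and 1775 of the 13883 features did. The median log2 fold change was -0.16, with 8 members positive and 15 negative, against -0.54 over 101 SNORA rows, -0.63 over 172 SNORD rows, -0.84 over 34 snRNA and TERC rows (-0.67 taken per gene) and -0.01 over all features. Without control replicate 1, the library that stood apart, the medians were 0.01 for the members (12 positive, 11 negative), -0.22 for SNORA, -0.34 for SNORD, -0.31 for the snRNA and TERC rows and 0.02 for all features. SCARNA14 had 4.75, 3.24 and 3.67 CPM in control and 2.11, 1.56 and 2.80 in siSSB total, a log2 fold change of -0.85 ± 0.27 (edgeR adjusted p = 0.13). SCARNA4 had 4.82, 2.44 and 2.48 CPM in control and 1.59, 1.65 and 2.26 in siSSB total, a log2 fold change of -0.82 ± 0.30. These and SCARNA27, at -0.68 ± 0.28, were the 3 members with all knockdown libraries below all controls, against 9.05% of all features, and SCARNA7, at 0.39 ± 0.23, was the only one above, against 10.6%. Without control replicate 1 the log2 fold changes of SCARNA14, SCARNA4 and SCARNA27 were -0.68, -0.43 and -0.44.

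SCARNA20 and SCARNA1 had the lowest log2 fold changes in total RNA, and both rested on control replicate 1. SCARNA20 had 6.62, 1.17 and 0.784 CPM in control and 1.14, 0.264 and 1.42 in siSSB total, a log2 fold change of -1.62 ± 0.71 that became -0.08 ± 0.42 without that library. SCARNA1 had 1.34, 0.603 and 0.305 CPM in control and 0.292, 0.264 and 0.405 in siSSB total, a log2 fold change of -1.21 ± 0.44 that became -0.50 ± 0.35. Without control replicate 3 instead, SCARNA1 was called, at -1.62 ± 0.36 (edgeR adjusted p = 0.028). Scaled to summed microRNA counts, 12 of 23 members were called lower in siSSB total. So were 3924 of 13883 features, 77 of 101 SNORA rows and 127 of 172 SNORD rows. The median of all features moved from -0.01 to -0.67 with that scaling, and 19 of the 23 members changed sign among the 6 scalings.

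In cytoplasmic RNA no member of 22 was called, where 0.291% of 18921 features were, and the median log2 fold change was -0.10, with 6 positive and 16 negative. At an unadjusted p under 0.05 edgeR gave 2 members and DESeq2 none, where they gave 1260 and 782 of the 18921 features. The SNORA rows had a median of 0.12 and all features of 0.01, and 11 of the 22 members changed sign with the scaling. The 22 mitochondrial tRNAs were higher in siSSB cyto, at 42459 to 46458 CPM of the short rows against 21595 to 36387 in control cyto, and their part in the result was not tested. SCARNA28 had 24.04, 15.2 and 13.1 CPM in control and 9.38, 8.48 and 13.5 in siSSB cyto, overlapping in 1 library, with a log2 fold change of -0.74 ± 0.32 (edgeR adjusted p = 0.70). SCARNA9 was the only member with all knockdown libraries lower, against 7.53% of all features, at 19.7, 17.96 and 16.0 CPM in control and 11.1, 11.5 and 15.9 in siSSB cyto. SCARNA3 was the only one with all of them higher, against 5.96%, at 0.529, 0.625 and 0.414 CPM in control and 0.989, 0.741 and 0.995 in siSSB cyto. As group means, 93.0% to 95.5% of its cytoplasmic counts lay in the window of MIR1843, where hairpin and scaRNA reads cannot be told apart.

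The difference between the nuclear and the cytoplasmic knockdown effects was tested on the 12 fraction libraries. None of 24 members was called, where 0.0133% of 37493 features were, and 3 had an unadjusted p under 0.05 by edgeR and 1 by DESeq2. Over the 37493 features 1836 had it by edgeR and 1480 by DESeq2. The median difference was 0.54 on the log2 scale, with 19 positive and 5 negative, against -0.33 over 126 SNORA rows and 0.01 over all features. SCARNA28, SCARNA22 and SCARNA4 had differences of 1.09 ± 0.52, 1.03 ± 0.49 and 0.98 ± 0.47 (each edgeR adjusted p = 0.96).

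Relative to the SNORA snoRNAs of the same library, scaRNA counts differed between siSSB and control cells in opposite ways in the fractions, which did not hold against every other class. In nuclear RNA they were 1.69%, 1.59% and 1.97% of SNORA counts in control and 3.42%, 3.48% and 2.98% in siSSB cells. In cytoplasmic RNA they were 57.6%, 44.6% and 45.2% in control and 36.3%, 30.0% and 42.6% in siSSB cells. All nuclear knockdown libraries thus lay above the controls, with means of 3.29% ± 0.274 and 1.75% ± 0.196 (SD, n = 3), and all cytoplasmic ones below, with means of 36.3% ± 6.29 and 49.1% ± 7.35. In total RNA the groups overlapped, at 8.40%, 14.9% and 19.7% in control and 22.9%, 22.4% and 15.7% in siSSB cells. Without SCARNA20 and SCARNA22 the nuclear values were 0.854% ± 0.220 in control and 1.34% ± 0.0535 in siSSB cells, still apart.

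Relative to snRNA counts, the nuclear values were 0.656%, 0.665% and 1.06% in control and 1.37%, 1.79% and 1.33% in siSSB cells, apart as well. The cytoplasmic ones overlapped, at 2.37%, 1.83% and 1.41% in control and 1.31%, 1.24% and 2.04% in siSSB cells. Relative to the much larger SNORD counts the nuclear groups overlapped, at 0.0420%, 0.0607% and 0.0918% in control and 0.111%, 0.180% and 0.0834% in siSSB cells. The cytoplasmic groups overlapped too, and their means went the other way than against SNORA, at 1.07% ± 0.253 in control and 1.17% ± 0.269 in siSSB cells. Relative to microRNA counts the nuclear groups were apart, at 6.51% to 8.26% in control and 11.5% to 16.1% in siSSB cells. The total groups were apart in the opposite direction, at 7.69% to 8.42% and 3.48% to 5.24%, and the cytoplasmic ones overlapped, at 1.58% to 3.64% and 1.24% to 2.73%. These sums over members were not tested.

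**Figure D5:**
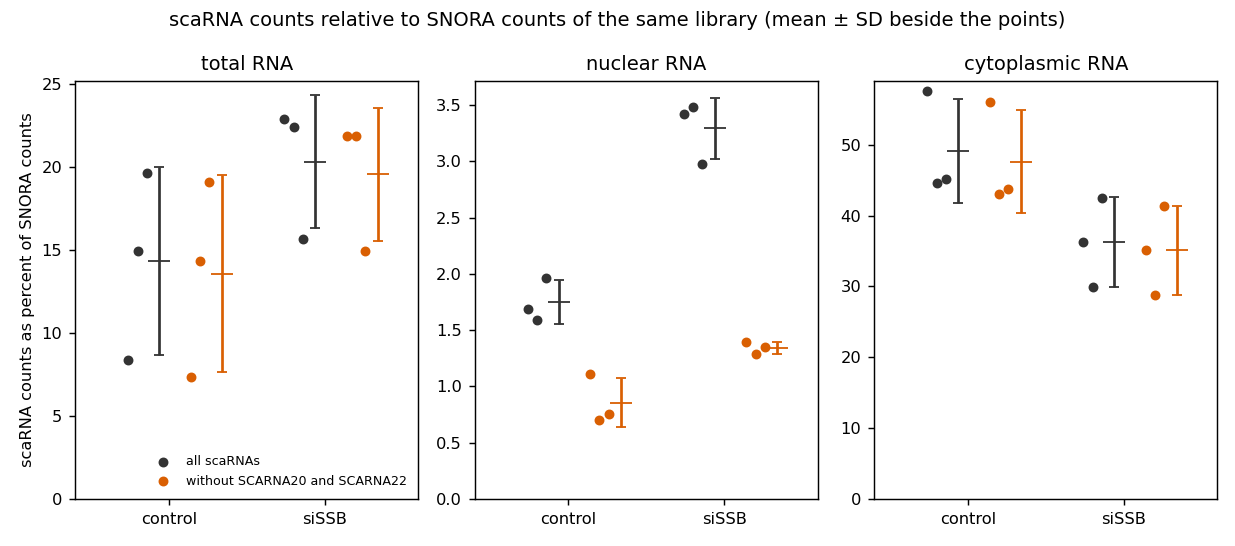
scaRNA counts as a percent of SNORA counts of the same library (vertical axes, each from 0), for all scaRNAs and without SCARNA20 and SCARNA22, with the mean ± SD beside the 3 replicates. Nuclear knockdown libraries lie above the controls (3.29% against 1.75%) and cytoplasmic ones below (36.3% against 49.1%).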

How the data were processed

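The authors deposited 1 table of raw read counts per noncoding RNA feature, with no normalization. Per the labels, the build was hg38 and the tools included Bowtie2 and bedtools, and their settings are not given in the sources used here. Total RNA and fractions came from a kit that separates them, and libraries from a small RNA kit, 48 hours after transfection. The counts themselves show that overlapping features share reads and that strand was not used, and no molecular identifiers are described, so intervals of counts cover counting error only. Each window extends about 25 nt beyond the gene.

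Sample titles gave each library's group and replicate number. Members and gene lists were chosen with earlier results of these data known. Every distinct member was named, and values per library were given for the 6 members with the highest mean count and for members called in a knockdown comparison, of which there were none. All other members given in detail were chosen after their values were seen.

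The tools were R 4.3.3, limma 3.58.1 and edgeR 4.0.16, whose quasi-likelihood F-test was run with TMM factors and filterByExpr, each pair of groups on its own 6 libraries, with Benjamini-Hochberg adjustment over all features and an adjusted p under 0.05 as a call. The SE is the absolute log2 fold change over the square root of F. scaRNA sums leave out the row inside SCARNA17. Alternatives were 5 other scalings, no filter, identical rows once, DESeq2 1.42.0, the sums without SCARNA20 and SCARNA22 (added after the data were seen), an adjusted p under 0.01, the replicate number as a block, and each library left out in turn. The steps were tested on simulated data. As a check of pairing, the deviations of same-numbered nuclear and cytoplasmic control libraries correlated with r of 0.11, 0.16 and 0.18, each above the limit of 0.1 set for pairing. With the replicate block 14 members were again called higher and 3 lower. In the other 4 comparisons at least 1 pair was below the limit.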

Additional observations from a re-analysis of the deposited data

Results flagged for a closer look

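scaRNA counts as a percent of SNORA counts were picked out because every library of 1 fraction moved one way with the knockdown and every library of the other fraction the opposite way. The ratio of the siSSB to the control mean was 1.89 in nuclear RNA and 0.739 in cytoplasmic RNA. Against SNORD counts the cytoplasmic groups overlapped, with a higher siSSB mean. The difference between the fractions was not tested on these sums, and no single scaRNA was called in the test of that difference. Groups of 3 libraries are too small for a search for outlying samples, and no other scaRNA value was picked out.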

How the results depend on the processing

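No scaRNA was called in the knockdown comparisons of nuclear or cytoplasmic RNA, or in the test of their difference, under any alternative. In total RNA 0 were called, but 12 when scaled to microRNAs, 2 (SCARNA1 and SCARNA20) with features of at least 1 count, and 0 to 1 with a library left out. Over all features, 3957 of 13883 were called with the microRNA scaling and 626 of 114675 with features of at least 1 count. Between the fractions, calls numbered 17 in control cells (13 to 17 with a library left out) and 19 in siSSB cells (14 to 19). With the replicate block 0 members were called in each knockdown comparison and in their difference, 17 between fractions in control cells and 20 in siSSB cells, where SCARNA28 was added at -0.90. Same-numbered libraries did not deviate together in the knockdown comparisons (r from -0.63 to 0.33) or in siSSB cells (-0.07 to 0.14), so the block there shares only a number, and the crossing of numbers was not tried.

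Scaled to snoRNAs, the sign turned for SCARNA27 in total RNA (0.039) and, between fractions, for SCARNA22, SCARNA8 and SCARNA12 in control (-1.43, -2.65 and -2.81) and siSSB cells (-0.28, -1.62 and -1.78). By library size alone it turned for SCARNA8 (-0.82) and SCARNA12 (-0.96) in control cells. The summed scaRNA log2 ratio in total RNA was -0.22, but 0.36 by library size, 0.53 by snoRNAs, -0.84 by microRNAs and 0.36 by short rows. In cytoplasmic RNA it was -0.27, but 0.11 by snoRNAs and -0.043 by short rows. Between fractions it was 1.90 in control cells, but -2.25 by library size, -4.07 by snoRNAs and -1.05 by short rows, and 2.62 in siSSB cells, but -1.17, -3.24 and -0.061 in that order and 2.96 by microRNAs. Without SCARNA20 and SCARNA22, a choice made after seeing the data, the log2 ratio of scaRNA to SNORA counts was 0.65 in place of 0.91 for nuclear knockdown, -5.80 in place of -4.81 between fractions in control cells and -4.71 in place of -3.46 in siSSB cells. The causes of these changes were not tested. With 3 libraries in a group, an exact permutation test of 1 value could not go below p = 0.1, and rows with few counts could show no change.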
